A study of Mus musculus with 12 samples.

Results

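The neutrophil genes examined here were 10 of the 23715 genes measured in newborn mouse calvaria, the flat bone of the skull vault with the marrow and blood it holds. They were chosen by name, with earlier results of these data known, as neutrophil granule proteins, S100 alarmins and the stefin A cluster. *Elane* and *Mpo* encode early granule proteins. *Camp*, *Ngp*, *Ltf* and *Lcn2* encode specific granule proteins, *Retnlg* a protein secreted by late-stage neutrophils, and *S100a8*, *S100a9* and *Stfa2l1* cytosolic proteins. The latter 8 are called late genes below.

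RNA of single C57BL/6 newborns was sequenced in 2 sets, each with 3 mice of a mutant and 3 of a control genotype. P-KO mice carried a *Med23* deletion specific to mesenchymal stem cells. The study made it with floxed *Med23* and a Prx1-Cre transgene and describes this Cre as active largely, not solely, in ventral and craniofacial mesenchyme. P-Ctrl mice were their control littermates, labelled WT. Controls of this cross are given as *Med23* fl/fl in the study's figure legends, and the genotype of the sequenced controls is not spelled out in its methods. R-Het mice were *Runx2*+/- in all cells and R-WT mice were WT. The labels name the tissue calvaria of newborns, whereas the methods name parietal bone taken shortly after birth. Values are FPKM, sequenced fragments scaled to transcript length and library size, which can be compared between genes of different length.

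Neutrophils are short-lived phagocytes made in marrow from promyelocytes. Granule proteins are transcribed in waves during this maturation: *Mpo* and *Elane* are switched on in promyelocytes and off again before *Ltf*, *Lcn2*, *Camp* and *Ngp* are switched on in myelocytes, and *S100a8* and *S100a9* transcripts stay abundant into the mature cell. Newborn marrow is only beginning to take over from the fetal liver as the site of this process. The stefin A genes encode small cytosolic inhibitors of cysteine cathepsins and form a tandem array in the mouse.

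The stefin A array lay on chromosome 16 of GRCm38, where *Stfa2l1* occupied chr16:36156811-36161948 on the plus strand. Further along it were *Stfa1* at chr16:36277148-36285371, *Stfa2* at chr16:36403946-36408363 and *Stfa3* at chr16:36450537-36455392. Their promoters are shown because the members of this array parted in their values although their sequences were close. The 220 bases before each RefSeq start are printed 5′ to 3′, with matches to the RUNX core motif TGTGGT on either strand in capitals.
Stfa2l1, GRCm38 chr16:36156591-36156810, plus strand: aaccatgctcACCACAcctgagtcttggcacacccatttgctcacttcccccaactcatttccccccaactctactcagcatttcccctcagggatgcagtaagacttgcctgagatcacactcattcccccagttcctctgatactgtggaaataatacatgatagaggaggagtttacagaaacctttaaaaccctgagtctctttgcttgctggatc
Stfa2, GRCm38 chr16:36408364-36408583, minus strand: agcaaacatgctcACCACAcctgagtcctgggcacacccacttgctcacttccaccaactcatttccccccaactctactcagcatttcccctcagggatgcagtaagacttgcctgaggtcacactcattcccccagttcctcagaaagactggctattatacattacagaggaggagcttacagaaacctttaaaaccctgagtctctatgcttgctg
Stfa1, GRCm38 chr16:36276928-36277147, plus strand: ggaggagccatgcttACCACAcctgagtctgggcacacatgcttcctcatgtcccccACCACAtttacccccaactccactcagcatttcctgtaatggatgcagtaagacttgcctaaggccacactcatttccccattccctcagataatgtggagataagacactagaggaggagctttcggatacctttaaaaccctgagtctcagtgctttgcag
Stfa3, GRCm38 chr16:36455393-36455612, minus strand: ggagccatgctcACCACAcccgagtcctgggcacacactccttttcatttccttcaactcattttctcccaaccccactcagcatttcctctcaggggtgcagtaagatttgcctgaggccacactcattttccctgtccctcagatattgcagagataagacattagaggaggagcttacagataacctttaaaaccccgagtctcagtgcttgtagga

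Over 250 bases before the start, the *Stfa2l1* promoter was 92.3% identical to that of *Stfa2*, 85.6% to that of *Stfa1* and 84.4% to that of *Stfa3*, counted over aligned bases without gaps. The first RUNX match began 210 bases before the start in *Stfa2l1*, 207 in *Stfa2*, 205 in *Stfa1* and 208 in *Stfa3*. Of all 27025 promoters of this length, 14.2% held a match. Among the 10 neutrophil genes 2 did, *Stfa2l1* and *S100a9*, the latter with 1 match 64 bases before its start. In their transcripts, *Stfa2l1* and *Stfa2* shared 361 of 373 aligned bases, or 96.8%. The *Stfa2l1* transcript was 83.1% identical to that of *Stfa1* and 82.2% to that of *Stfa3*. Of its 50-base windows, 24.6% also occurred in a transcript of another gene. How the authors' counting split fragments between such copies is not given in the sources used here, so the values of single stefin A genes are uncertain.

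Motifs of C/EBP and PU.1, factors of granulocyte maturation, were searched for in the same way. The C/EBP motif TTGCNNAA was found in the promoters of *Ngp*, *Ltf*, *Lcn2*, *Retnlg* and *S100a9*, that is in 5 of 10, against 9.55% of all promoters. The PU.1 core GAGGAA was found in 6 of 10, which were *Elane*, *Mpo*, *Ltf*, *Lcn2*, *S100a8* and *Stfa2l1*, against 23.1% of all. *Ngp* and *Ltf*, both specific granule genes, are shown over 150 bases with the C/EBP match in capitals, and *S100a9* with its RUNX match. No capitals in these windows overlapped a match to another of the 3 motifs. A match is a run of letters and not evidence of binding.
Ngp, GRCm38 chr9:110419658-110419807, plus strand: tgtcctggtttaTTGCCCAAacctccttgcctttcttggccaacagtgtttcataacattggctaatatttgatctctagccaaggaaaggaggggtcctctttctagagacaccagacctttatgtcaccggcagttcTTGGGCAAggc
Ltf, GRCm38 chr9:111019142-111019291, plus strand: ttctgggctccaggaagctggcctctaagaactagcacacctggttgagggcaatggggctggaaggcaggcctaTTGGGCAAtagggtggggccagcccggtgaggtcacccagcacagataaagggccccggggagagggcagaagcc
S100a9, GRCm38 chr3:90695722-90695871, minus strand: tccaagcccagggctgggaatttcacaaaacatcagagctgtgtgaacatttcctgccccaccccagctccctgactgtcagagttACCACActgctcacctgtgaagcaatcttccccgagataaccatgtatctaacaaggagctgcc

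FPKM, which are already scaled to library size, summed to between 891329 and 1068933 a mouse. The value of 1 fragment, read from the lowest values, put the depth at roughly 8070000 fragments in R-Het 3 to 11400000 in R-WT 1. All P-KO libraries, at 8410000 to 8960000, were shallower than the P-Ctrl libraries, at 9310000 to 10900000. R-Het libraries had 8070000 to 9740000 and R-WT libraries 9020000 to 11400000 by this estimate. Fragment numbers below come from this estimate and cover counting only. At gene level *Med23* was at 4.54 to 5.99 FPKM in P-Ctrl and 4.89 to 5.74 in P-KO, and *Runx2* at 27.3 to 37.7 in R-WT and 30.4 to 35.7 in R-Het, so neither targeted gene was lower in its mutant group. A gene-level value does not show a deletion of some exons or in some of the cells, and the groups are named as labelled throughout. *Xist*, transcribed in females, was at 37.8 to 49.1 FPKM in P-Ctrl 2, P-Ctrl 3 and R-WT 1 and at no more than 0.0663 in the other 9 mice, all 6 mutants among them. Whether same-group mice came from separate litters is not stated, so p-values measure the spread between these mice.

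The early genes were barely detected. *Elane*, which encodes neutrophil elastase, was at 0.537, 0.141 and 0 FPKM in P-Ctrl 1 to 3, at 0.179, 0.183 and 0 in P-KO, at 0.497, 0.468 and 0.352 in R-WT and at 0, 0.174 and 0.379 in R-Het. These values stood for 0 to about 5.75 fragments a mouse, and the groups overlapped in both sets. A difference in *Elane* was therefore not detectable at this depth.

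*Mpo*, the myeloperoxidase of the early granules, was at 0.257, 0.0341 and 0.0409 FPKM in P-Ctrl and at 0.126, 0.0870 and 0.126 in P-KO. It was at 1.22, 0.519 and 0.798 in R-WT and at 0.1495, 0.572 and 0.182 in R-Het. The R-WT mice were the highest apart from R-Het 2, which lay between the 2 lowest of them. *Mpo* rested on roughly 13.7 to 38.2 fragments in R-WT, 4.01 to 14.2 in R-Het and 1.00 to 7.68 in the 6 mice of the *Med23* set. The mean of R-WT was 2.80 times that of R-Het with overlapping groups, and 7.64 times that of P-Ctrl, where all 3 P-Ctrl mice lay below all 3 R-WT mice. Of all genes tested below, 10.8% showed this last separation. Both early genes stayed below 1 FPKM in all but 1 mouse and did not enter the test.

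Of the other early granule genes, *Prtn3*, which encodes proteinase 3, averaged 1.02 FPKM and was the 1 of 4 that entered the test. It was at 1.12, 0.553 and 0.165 FPKM in P-Ctrl against 1.55, 2.10 and 1.38 in R-WT, without overlap, as for *Mpo* and 10.8% of all tested genes. The log2 fold change of P-Ctrl against R-WT was -0.76 with a standard error of 0.23 (limma adjusted p = 0.395). *Ctsg*, the cathepsin of the same granules, averaged 0.696 FPKM with its highest value, 2.61, in P-Ctrl 1. *Ms4a3*, a surface protein of granulocyte precursors, averaged 0.264 FPKM.

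**Figure D1:**
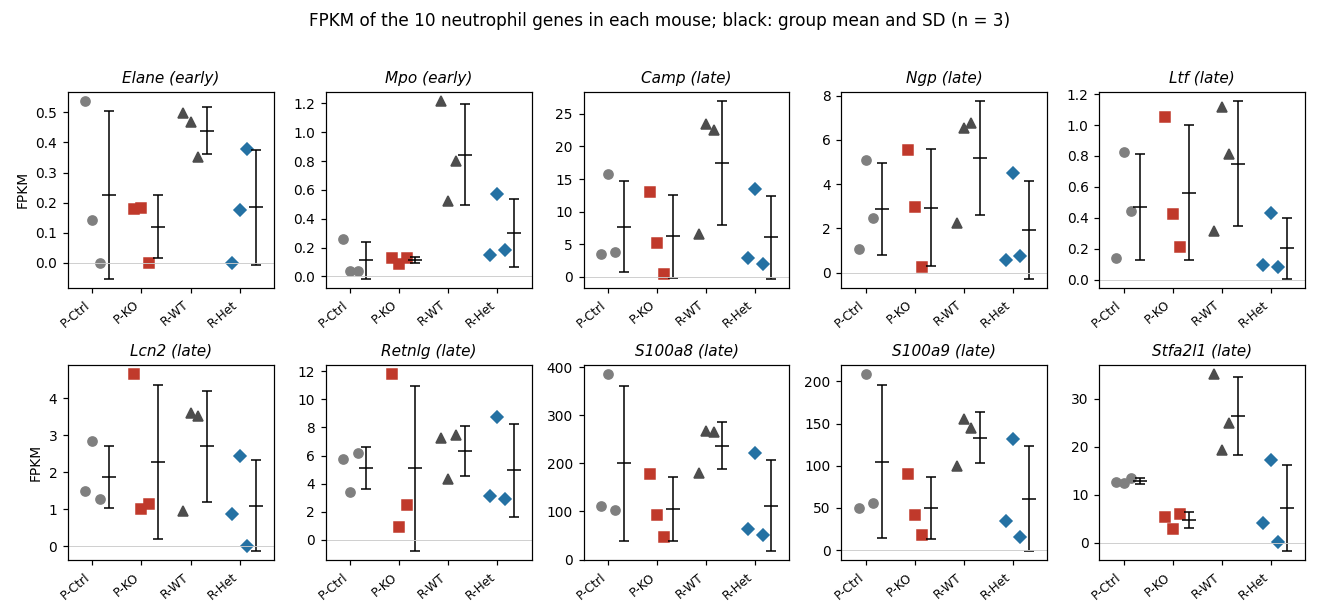
FPKM (y axis, linear, a scale for each gene) of the 10 genes in each of the 12 mice, grouped by genotype (x axis), with the group mean and SD in black (n = 3). *S100a8* ran from 46.7 to 387 FPKM, and *Stfa2l1* was the gene whose P-KO mice (2.94 to 5.96) and R-Het mice (0.187 to 17.3) all lay below their controls (12.54 to 13.6 and 19.3 to 35.3). Taken singly, these separations were shown by 7.68% and 10.4% of all tested genes.

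The specific granule genes were higher than the early ones and varied several-fold among mice of 1 genotype. *Camp*, the cathelicidin precursor, was at 3.52, 15.8 and 3.87 FPKM in P-Ctrl and at 13, 5.20 and 0.437 in P-KO. It was at 6.59, 23.4 and 22.6 in R-WT and at 2.91, 13.4 and 1.96 in R-Het. The groups overlapped in both sets, and in 3 of the 4 groups 1 mouse stood well above the others: P-Ctrl 2, P-KO 1 and R-Het 2. In R-WT, mouse 1 stood below the others.

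*Ngp*, a cystatin-like granule protein, showed the same mice as high and low. It was at 1.06, 5.11 and 2.45 FPKM in P-Ctrl, 5.54, 2.98 and 0.265 in P-KO, 2.23, 6.56 and 6.78 in R-WT and 0.593, 4.50 and 0.742 in R-Het. The ratio of *Camp* to *Ngp* ran from 1.57 to 4.90 over the 12 mice, a narrower range than that of either gene.

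*Lcn2*, which encodes an iron-siderophore binding protein of the specific granules, was at 1.49, 2.84 and 1.28 FPKM in P-Ctrl and at 4.67, 1.00 and 1.14 in P-KO. It was at 0.966, 3.61 and 3.52 in R-WT and at 0.863, 2.44 and 0 in R-Het. *Ltf*, lactoferrin, was the lowest of the late genes at 0.0812 to 1.12 FPKM, and its highest mice, R-WT 2 and P-KO 1, were among those high for *Camp*. *Ltf* reached 1 FPKM in 2 of the 12 mice and did not enter the test.

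*Retnlg*, a resistin-like protein, did not share this order. It was at 5.76, 3.42 and 6.18 FPKM in P-Ctrl, 11.8, 0.916 and 2.48 in P-KO, 7.26, 4.29 and 7.48 in R-WT and 3.12, 8.77 and 2.92 in R-Het. P-Ctrl 2, highest of its group for *Camp* and *Ngp*, was lowest for *Retnlg*.

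*S100a8* and *S100a9* encode the subunits of calprotectin, and were the most abundant of the 10. They lay side by side on chromosome 3, at chr3:90669071-90670034 and chr3:90692630-90695721. *S100a8* was at 112, 387 and 102 FPKM in P-Ctrl and at 177.9, 92.3 and 46.7 in P-KO. It was at 179.7, 267 and 264 in R-WT and at 64.0, 221 and 50.7 in R-Het. P-KO 2 and P-KO 3 were below every P-Ctrl mouse, and R-Het 1 and R-Het 3 below every R-WT mouse, while P-KO 1 and R-Het 2 lay among the controls.

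*S100a9* was at 49.8, 209 and 55.8 FPKM in P-Ctrl, 90.7, 41.6 and 18.0 in P-KO, 99.7, 156 and 145 in R-WT and 34.5, 132 and 15.8 in R-Het. The same mice were high and low as for *S100a8*. The ratio of *S100a8* to *S100a9* was 1.85 in the median mouse and ran from 1.68 to 3.20, with the highest ratios in R-Het 3 and P-KO 3, the mice in which both genes were lowest.

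*Stfa2l1* was the exception among the late genes. It was at 12.6, 12.54 and 13.6 FPKM in P-Ctrl and at 5.30, 2.94 and 5.96 in P-KO. It was at 35.3, 19.3 and 24.9 in R-WT and at 4.07, 17.3 and 0.187 in R-Het. Every mutant mouse lay below every control of its set. Of all genes tested below, 7.68% showed this in the *Med23* set and 10.4% in the *Runx2* set. The share with it in both sets is not given here, and the gene was chosen with both comparisons known. The 3 P-Ctrl mice, which spread over 102 to 387 FPKM for *S100a8*, lay within 12.54 to 13.6 for *Stfa2l1*. P-Ctrl 1, without *Xist*, was at 12.6, and R-WT 1, the R-WT mouse with *Xist*, was the highest of all at 35.3. No mutant mouse had *Xist*, and the part of sex in the difference was not tested. In R-Het 3 the value stood for about 0.633 of a fragment, that is for at most 1.

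In order of the mean over the 12 mice the levels were 164 FPKM for *S100a8*, 87.3 for *S100a9*, 12.8 for *Stfa2l1*, 9.39 for *Camp*, 5.37 for *Retnlg*, 3.24 for *Ngp*, 1.99 for *Lcn2*, 0.497 for *Ltf*, 0.342 for *Mpo* and 0.243 for *Elane*. The ranges over mice of all neighbours in this order overlapped. Within each mouse *S100a8* was above *S100a9*. The mean log2(FPKM + 1) of the 8 late genes exceeded that of the 2 early genes by 3.15 ± 0.68 in P-Ctrl, 2.68 ± 0.83 in P-KO, 3.26 ± 0.50 in R-WT and 2.39 ± 0.99 in R-Het (SD, n = 3). In both sets the mutant mean was lower by less than the SD of the mutant group. With early genes this close to 0 the gap depends on the pseudocount: with 0.1 in place of 1 it was 5.16, 4.59, 4.19 and 3.71 in the same order, and R-WT no longer had the widest.

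Differences between genotypes were set against all genes with limma on log2(FPKM + 1), over the 13059 genes that reached 1 FPKM in at least 3 mice. Of the 10 genes 7 entered it. The genes were chosen with both mutant comparisons known, so their values there are a description and no test of a group effect. In bulk tissue, fewer neutrophils and less transcript per neutrophil cannot be told apart.

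In P-KO against P-Ctrl, 6 of the 7 had a log2 fold change below 0 and the median was -0.52, beside 0.06 over all tested genes. At an adjusted p under 0.05, 1 of the 7 was lower and 0 were higher, where 0.559% of all tested genes were lower and 1.01% higher. By the looser rule of an unadjusted p under 0.05 and a log2 fold change beyond 0.58, again 1 of 7 was lower and 0 higher, against 1.69% and 2.66% of all. The gene was *Stfa2l1* both times, at -1.32 with a standard error of 0.20 (limma adjusted p = 0.0359). Its call was lost without the filter on low values (0.095), with all 12 mice in 1 fit (0.276), without a trend (0.054), with the highest transcript of each gene (0.0544), and without any 1 of the 6 mice (0.0513 to 0.116), each p being adjusted in limma. The values themselves stayed between -1.49 and -1.07.

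For the other 6 genes the differences in the *Med23* set lay within 2 standard errors of 0. *S100a9* was at -1.01 (standard error 0.69), *S100a8* at -0.84 (0.61), *Camp* at -0.52 (0.84), *Retnlg* at -0.44 (0.62), *Ngp* at -0.13 (0.62) and *Lcn2* at 0.05 (0.41). The sign changed for *Camp* and *Ngp* without P-Ctrl 2 or P-KO 3, for *Retnlg* without P-KO 2, and for *Lcn2* without P-Ctrl 1, P-Ctrl 3 or P-KO 1 and with values rescaled to the same sum. *Stfa2l1* was also the 1 gene of the 7 with all 3 P-KO mice below all 3 P-Ctrl mice, which 7.68% of all tested genes showed.

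In R-Het against R-WT, all 7 were below 0 with a median of -1.37, beside 0.02 over all tested genes. At an adjusted p under 0.05 none of the 7 was called in limma, where 1.49% of all tested genes were lower and 0.398% higher, and 5 of them had an unadjusted p under 0.05, as did 15.4% of all tested genes. Those 5 passed the looser rule downwards and 0 upwards, against 2.89% and 1.19% of all tested genes. They were *Stfa2l1* at -2.48 (standard error 0.83), *S100a9* at -1.62 (0.64), *Camp* at -1.57 (0.64), *S100a8* at -1.37 (0.49) and *Ngp* at -1.21 (0.51). *Lcn2* was at -0.89 (0.48) and *Retnlg* at -0.41 (0.35).

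R-Het 2 set the spread of its group. It held 221 FPKM of *S100a8* where the other R-Het mice held 64.0 and 50.7, and was the highest R-Het mouse for each of the 8 late genes. Without it, *S100a8* at -2.02, *S100a9* at -2.43 and *Stfa2l1* at -3.45 passed an adjusted p of 0.05 in limma (0.0185, 0.0285 and 0.0469), with 2 mice left in the group. The share of all genes called in that fit is not given here, so these calls are a description only. Without R-Het 3, *Stfa2l1* was at -1.47. All 3 R-Het mice lay below all 3 R-WT mice for 1 of the 7, *Stfa2l1*, against 10.4% of all tested genes.

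**Figure D2:**
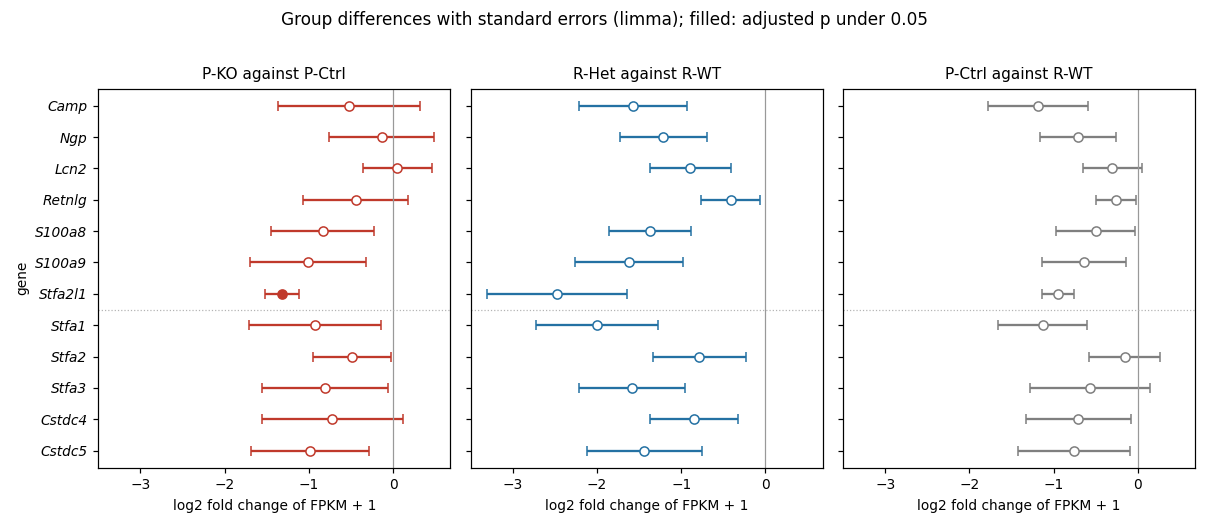
Log2 fold change of FPKM + 1 (x axis, points with limma standard errors, n = 3 mice a group) for the 7 tested neutrophil genes and, under the dotted line, 5 other stefin A genes, in the 3 comparisons. One point is filled, *Stfa2l1* in P-KO against P-Ctrl (-1.32, adjusted p under 0.05), and all 12 points of R-Het against R-WT lie below 0. The tested relative *Csta3*, at 0.12 in P-KO against P-Ctrl and -1.35 in R-Het against R-WT, is not drawn.

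The 2 mutant contrasts were compared directly as the P-KO difference minus the R-Het difference. It was above 0 for 6 of the 7 with a median of 0.95, that is, a larger fall in R-Het, but 0 of the 7 passed an adjusted p of 0.05 in limma and 0 had an unadjusted p under 0.05, against 0.153% of all tested genes called. For *Stfa2l1* it was 1.16, and 0.16 without R-Het 3.

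The controls of the 2 sets were also compared. These are the control mice of both mutant comparisons, so the choice of genes was not independent of their values. All 7 were lower in P-Ctrl than in R-WT with a median of -0.64, beside -0.04 over all tested genes. None was called in limma (0.0383% of all tested genes were, in either direction), and 1 had an unadjusted p under 0.05, as did 9.43% of all tested genes. That gene, *Stfa2l1*, was at -0.94 with a standard error of 0.19 (limma adjusted p = 0.312). It was the 1 of 7 past the looser rule downwards, which 1.74% of all passed, and 1 of 7 with all P-Ctrl mice below all R-WT mice, which 10.8% of all showed. The mean of R-WT, 26.5 ± 8.12 FPKM, was 2.05 times that of P-Ctrl, 12.9 ± 0.586 (SD, n = 3). The 2 control groups come from different crosses, and cross and set cannot be told apart.

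The late genes rose and fell together from mouse to mouse within genotypes. Each gene's log2(FPKM + 1) was taken as a deviation from its group mean, and deviations were correlated over the 12 mice, which share their libraries, so these values are descriptions. For *Camp*, *Ngp*, *Ltf*, *Lcn2*, *S100a8* and *S100a9* the 15 pairwise r ran from 0.79 to 0.98 with a median of 0.89. Against the mean of the other late genes *S100a9* had an r of 0.96 and *S100a8* of 0.93, whereas *Retnlg* had 0.50 and *Stfa2l1* 0.48. Each r of *Stfa2l1* rests chiefly on R-Het, where its values spread most (0.187 to 17.3 FPKM), with the lowest near the floor. For the early genes r with the late genes was 0.19 for *Mpo* and -0.10 for *Elane*, and r with *Stfa2l1* was 0.62 and -0.33. Both early genes rest on few fragments.

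**Figure D3:**
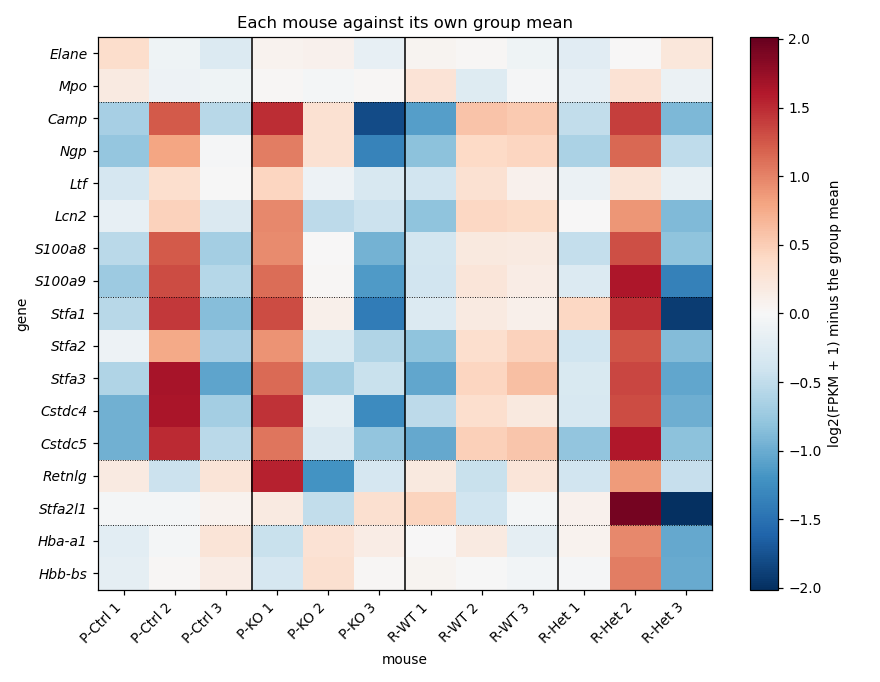
Deviation of log2(FPKM + 1) from the group mean (colour, red above and blue below) for each gene (rows) in each of the 12 mice (columns, split by group), with early genes, late genes, stefin A relatives, *Retnlg* with *Stfa2l1*, and 2 globin genes set apart by dotted lines. P-Ctrl 2, P-KO 1 and R-Het 2 are red and R-Het 3 blue from *Camp* to *Cstdc5*, while *Stfa2l1* is near 0 in P-Ctrl and extreme in R-Het 2 and R-Het 3, as the globin genes are.

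Of the other stefin A genes 5 varied more closely with *S100a8* than with *Stfa2l1*, and 2, *Csta3* and *Cstdc6*, did not. Of 8 listed relatives 7 were found in the files and 6 entered the test. *Stfa1*, the most abundant, was at 34.3, 139 and 27.6 FPKM in P-Ctrl, 66.9, 28.4 and 9.36 in P-KO, 93.0, 128 and 121 in R-WT and 37.1, 79.2 and 6.62 in R-Het. *Cstdc5* and *Cstdc4*, listed under older names, averaged 46.5 and 39.0 FPKM and had their highest values, 114 and 97.5, in P-Ctrl 2, as *Stfa1* did. *Stfa2* and *Stfa3*, picked after their values were seen, averaged 22.3 and 18.5 FPKM. These are all above the mean of *Stfa2l1*.

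With *S100a8* the r of deviations was 0.92 for *Stfa1*, 0.93 for *Stfa2*, 0.92 for *Stfa3*, 0.98 for *Cstdc4* and 0.95 for *Cstdc5*, against 0.47 for *Stfa2l1*. That last r rests chiefly on R-Het, where *Stfa2l1* kept the order of *S100a8* among the mice. It is therefore not a property shared evenly by the 12 mice. *Csta3* had 0.645 with *S100a8* and 0.647 with *Stfa2l1*, and *Cstdc6*, listed at 0 in 11 mice, had -0.175 and 0.185. The summed FPKM of the 7 relatives was 0.846 to 1.40 times *S100a8* in every mouse, and *Stfa2l1* was 0.00369 to 0.196 times *S100a8*. *Stfa2l1* made up 0.421% of the FPKM of the whole cluster in R-Het 3 and 15.4% in R-WT 1. Its nearest copy, *Stfa2*, whose transcript is 96.8% identical, varied with *S100a8*.

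**Figure D4:**
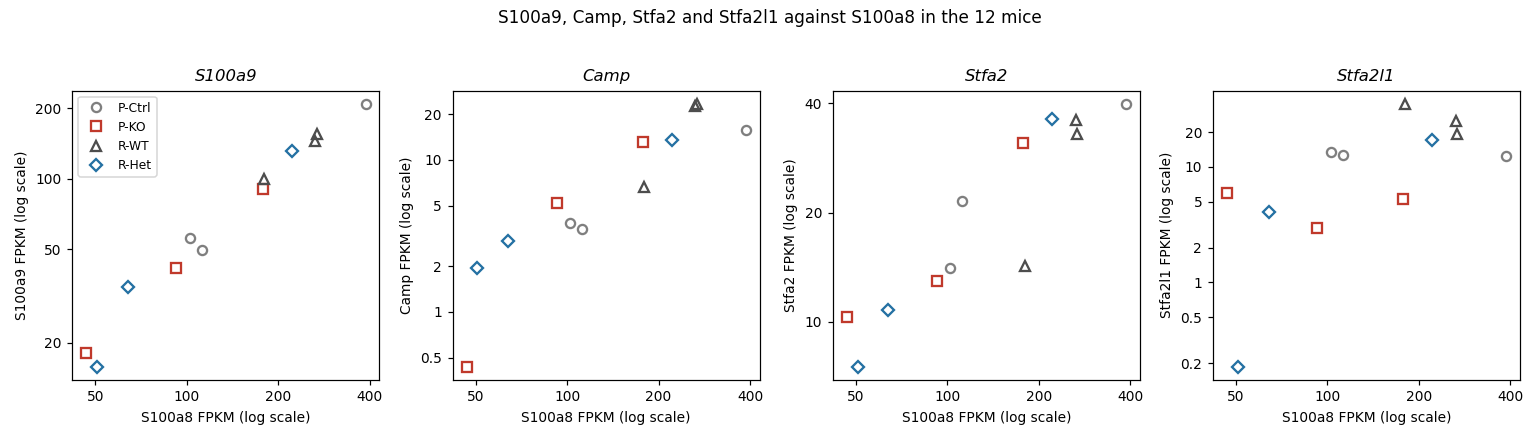
FPKM of *S100a9*, *Camp*, *Stfa2* and *Stfa2l1* (y axes, log scale) against FPKM of *S100a8* (x axes, log scale) in the 12 mice, marked by group. *S100a9*, *Camp* and *Stfa2* climb with *S100a8*, and in the *Stfa2l1* panel the 3 P-Ctrl mice lie level at 12.54 to 13.6 FPKM while *S100a8* runs from 102 to 387.

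In P-KO against P-Ctrl 0 of the 6 tested relatives were called in limma, 5 were below 0 and the median was -0.77. An unadjusted p under 0.05 was found for 0 of them, beside 21.3% of all tested genes. In R-Het against R-WT 0 were called and all 6 were below 0 with a median of -1.40. Of the 6, 2 had an unadjusted p under 0.05, beside 15.4% of all tested genes. The 2 were *Stfa1* at -1.997 (standard error 0.72) and *Stfa3* at -1.59 (0.63). *Stfa1* was also the relative whose R-Het mice all lay below the R-WT mice, which 10.4% of all tested genes showed. Between the controls 0 of the 6 were called. One, *Csta3* at -1.19 (0.50), had an unadjusted p under 0.05, beside 9.43% of all tested genes. *Stfa1*, at -1.13 there, was called without P-Ctrl 2 (-1.84, limma adjusted p = 0.0362).

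Hemoglobin genes varied with *Stfa2l1* over the 12 mice, chiefly through R-Het. The r of deviations with *Stfa2l1* was 0.81 for *Hba-a1* and 0.86 for *Hbb-bs*, against 0.34 and 0.45 for *S100a8* with the same genes. It was not high for globin genes alone: the osteoblast gene *Bglap* had 0.72 with *Stfa2l1*, 0.73 with *S100a8* and 0.77 with the late genes. With *Stfa2l1*, *Tpsb2* had 0.44, *Acta1* 0.38, *C1qa* -0.175 and *Acp5* -0.36. The summed FPKM of 7 erythroid genes was 8659 to 14406 in P-KO against 15703 to 21386 in P-Ctrl, and 4777 to 19279 in R-Het against 18360 to 20981 in R-WT. All 7 were below 0 in both mutant contrasts, 0 of them called, with medians of -0.64 and -1.07. The looser rule downwards was passed by 4 in P-KO and 7 in R-Het, beside 1.69% and 2.89% of all tested genes. R-Het 2 held the most and R-Het 3 the least of the R-Het mice, the order of *Stfa2l1*. In P-KO the sum was highest in mouse 2 (8659, 14406 and 12297), where *Stfa2l1* was lowest, and in R-WT it was 20680, 20981 and 18360 where *Stfa2l1* was highest in mouse 1. The part of blood content in the *Stfa2l1* difference was not tested.

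Markers of other cell types were measured beside these. The sum of 5 general leukocyte genes was 68.9 to 118 FPKM in P-KO against 103 to 142 in P-Ctrl, and 95.9 to 99.6 in R-Het against 120 to 132 in R-WT, with 5 of 5 below 0 in each and 0 called. An unadjusted limma p under 0.05 was found for 4 of the 5 in R-Het, beside 15.4% of all tested genes, and for 0 in P-KO. For 3 of the 5 every R-Het mouse lay below every R-WT mouse, beside 10.4% of all. For 7 macrophage genes the sum was 343 to 515 against 486 to 584 and 364 to 453 against 437 to 453, overlapping in both sets, with 0 called and a median of -0.05 in R-Het. Of 4 monocyte genes, whose cells also express *S100a8* and *S100a9*, 3 were below 0 in each contrast and 0 were called. All 7 osteoclast genes were below 0 in both contrasts, with medians of -0.43 in P-KO, 0 called, and -0.65 in R-Het. In R-Het against R-WT, 3 of the 7 were called lower (*Atp6v0d2*, *Dcstamp* and *Calcr*), beside 1.49% of all tested genes. All 7 had an unadjusted limma p under 0.05 there, as did 15.4% of all tested genes. For all 7 every R-Het mouse lay below every R-WT mouse, which 10.4% of all showed. All 7 osteoblast genes were below 0 in P-KO, where 2 were called lower (*Bglap* and *Bglap2*), beside 0.559% of all tested genes. In R-Het 4 were below 0 and 0 were called. All 6 skeletal muscle genes (*Acta1*, *Ckm*, *Tnnc2*, *Myl1*, *Mylpf* and *Myh3*) were called lower in R-Het against R-WT, beside 1.49% of all tested genes. Their sum was 17.8 to 171 FPKM in R-Het against 1754 to 5147 in R-WT. In P-KO all 6 were above 0 with 0 called.

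All 5 mast cell genes were above 0 in P-KO (80.2 to 161 FPKM in P-Ctrl, 189 to 232 in P-KO, 0 called). Of 4 megakaryocyte genes 0 were called in either contrast. Both tested B cell precursor genes were below 0 in each contrast, with medians of -0.18 in P-KO and -0.44 in R-Het, and both tested eosinophil genes were below 0 in R-Het, with 0 called in either list. The epidermis, which also expresses stefin A and S100 genes, was nearly absent: *Krt5* and *Krt14* stayed at or below 0.0848 and 0.145 FPKM, and *Krt10*, the 1 of 5 epidermal genes tested, averaged 3.03. The part of these cell types in the neutrophil results was not tested.

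Markers of the mature neutrophil surface were low. Of 8 receptors in the files 3 entered the test, *Clec4d*, *Fpr2* and *Siglece* at mean levels of 4.995, 1.14 and 0.878 FPKM, and 0 were called in any of the 3 comparisons. *Cxcr2* and *Csf3r*, named here because they define the cell type, were at 0.304 to 0.873 and 0.0656 to 0.622 FPKM. Late granule genes beyond the 10 differed in level: *Mmp9*, gelatinase B, averaged 496 FPKM, *Hp*, haptoglobin, 5.95 and *Pglyrp1*, a peptidoglycan recognition protein, 2.27. *Mmp9* is also made by osteoclasts, whose 7 genes summed to 3025 to 7336 FPKM. Of the 5 tested late granule relatives 0 were called in either mutant contrast, with medians of -0.31 and -0.46. All 3 R-Het mice lay below R-WT for *Mmp9* (337 to 479 against 491 to 632) and *Hp* (1.09 to 4.04 against 5.497 to 6.91). Such a separation was shown by 10.4% of all tested genes.

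Of the related genes as a whole, 48 of 50 were in the files and 30 were tested. In P-KO 0 were called in limma, beside 0.559% of all tested genes lower and 1.01% higher, and 7 had an unadjusted p under 0.05, beside 21.3% of all. In R-Het 2 were lower and 0 higher, beside 1.49% and 0.398% of all, and 11 had an unadjusted p under 0.05, beside 15.4% of all. The 2 were *Spi1*, which encodes the myeloid transcription factor PU.1, at -0.64 with a standard error of 0.08 (limma adjusted p = 0.0165), and *Rac2*, the GTPase of the phagocyte NADPH oxidase, at -0.67 with 0.10 (0.0262). *Spi1* was at 54.7, 52.4 and 53.5 FPKM in R-WT and at 34.1, 31.9 and 36.0 in R-Het, and *Rac2* at 35.8, 28.1 and 30.3 against 20.2, 18.8 and 18.8. Neither had R-Het 2 as an exception. In P-KO they were at -0.52 (0.117) and -0.66 (0.178), with adjusted p in brackets. Both genes are expressed in osteoclasts and macrophages too. Both calls were lost without the filter on low values, with the replicate block, without R-WT 1 and without R-Het 1, where 0 related genes were called. With all 12 mice in 1 fit, without R-WT 3 and without R-Het 2, 1 related gene was called.

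Of the 6 oxidase subunits, *Cyba* averaged 193 FPKM with log2 fold changes of -0.05 in P-KO and 0.03 in R-Het and was not called. Among transcription factors, 5 of 8 were tested, *Cebpd* averaged 17.2 FPKM and *Runx1*, a paralogue of *Runx2* in blood cells, 6.57 FPKM. *Runx1* was at -0.08 and -0.15 in the 2 contrasts, both within 1 standard error. Of the signals that neutrophils answer, *Cxcl12*, the chemokine that retains them in marrow, was at 153 to 157 FPKM in P-KO against 79.2 to 116 in P-Ctrl and at 177 to 241 in R-Het against 118 to 141 in R-WT. Its log2 fold change was 0.60 in both sets (limma adjusted p = 0.0882 and 0.0722). *Vcam1* was at 0.43 and 0.11, and *Kitl* at 0.13 and -0.22, none called.

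The genes most like the 8 late genes in their deviations, of 13052 compared over 12 mice, were *Hcls1* (r = 0.95), *Stfa2* (0.95), *Cstdc4* (0.94), *Jpt1* (0.94), *Ehd4* (0.93), *Cstdc5* (0.93), *Sox7* (0.93), *Mrpl19* (0.92), *Stfa1* (0.91) and *Ly6e* (0.91). Of these 10, 4 were stefin A genes and *Hcls1* encodes a cortactin-like protein of blood cells. *Jpt1*, *Ehd4*, *Sox7*, *Mrpl19* and *Ly6e* were on none of the gene lists. *Hcls1* ran from 6.97 to 11.8 FPKM, far less than the late genes did. The nearest to the 2 early genes were *Sptlc2*, *Mrpl15*, *Ncl*, *Ipp* and *Slc25a5*, with r from 0.90 to 0.91, and none of them is a granule gene. The highest of 13052 values of r thus came near 0.9 even for a pattern resting on few fragments, and neither list was tested.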

How the data were processed

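RNA of 12 newborn calvariae was sequenced by the authors (TRIzol RNA, TruSeq libraries). The authors deposited 1 table a mouse with FPKM per RefSeq transcript. Their processing notes name Bowtie 0.12.8 and mm10 without giving roles, and the program that estimated FPKM, the handling of strand and that of fragments matching several genes are not given in the sources used here. Python 3.11.15 summed the FPKM of 30411 transcripts into 23715 genes. The 13059 genes that reached 1 FPKM in 3 or more of the 12 mice were compared on log2(FPKM + 1) with limma 3.58.1 (R 4.3.3, trend, Benjamini-Hochberg over all tested genes). FPKM are not counts, so no count model was used. A gene was called at an adjusted p under 0.05. The pseudocount shrinks fold changes of weakly expressed genes.

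The 10 genes, the lists of related genes and cell type markers and the tests were chosen with earlier results of these data known. Named genes were the 10, every listed gene past the threshold, otherwise up to 3 a list by mean FPKM, and the 10 and 5 genes most like the late and early genes. Of 50 related genes, 4 stefin A genes were matched through GENCODE, and *Gm4758* and *Ly6g* are not analysed here, nor is the macrophage marker *Cd68*. Promoter sequences are from RefSeq (GRCm38.p6) and transcript identities from GENCODE M21. The fit was tested on simulated data with 200 changed genes. The alternatives were another pseudocount, no filter, 1 fit of all mice, a replicate block, 2 rescalings, no trend, the highest transcript of a gene and leaving out each mouse.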

Additional observations from a re-analysis of the deposited data

How the results depend on the processing

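The direction of the 7 tested genes held in 98 of 98 alternative values for R-Het against R-WT, in 98 of 98 for P-Ctrl against R-WT, in 89 of 98 for P-KO against P-Ctrl and in 126 of 133 for the difference of the 2 mutant contrasts. The 1 gene called in P-KO (*Stfa2l1*) became 0 without a filter, with all 12 mice in 1 fit, without a trend, with the highest transcript of a gene, and without any single mouse (0 to 0). It stayed 1 with the other pseudocount and both rescalings. For R-Het, leaving out single mice gave 0 to 3 of the 10 genes called, 3 being the count without R-Het 2. The shares of all genes called in these fits are not given here. Related genes called in P-KO went from 0 to 3 with all 12 mice in 1 fit. In R-Het they went from 2 to 0 without a filter, to 1 with all 12 mice and to between 0 and 2 without single mice (0 without R-WT 1 or R-Het 1, 1 without R-WT 3 or R-Het 2). Between the controls they were 0 to 1, the 1 being *Stfa1* without P-Ctrl 2. Without a filter 1 gene of all was called in P-KO and 5 in R-Het, where 205 and 247 were called with it.

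Same-numbered mice share only a number: the correlation of their deviations was 0.18, 0.26 and 0.05 in the *Med23* set and 0.00482, -0.05 and -0.08 in the *Runx2* set. With the replicate block 1 of the neutrophil genes was called in P-KO and 0 in R-Het, and 0 related genes in either, where 273 and 90 genes of all were called.

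With a pseudocount of 0.1 the gap of late to early genes was 5.16 in P-Ctrl, 4.59 in P-KO, 4.19 in R-WT and 3.71 in R-Het, by construction wider as the early genes are near 0. *Elane*, *Mpo*, *Ltf* and, in R-Het 3, *Stfa2l1* rest on few fragments, so differences in them are limited by depth.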
